A study of Caenorhabditis elegans with 4 samples.

Results

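The giant titin-like proteins of the nematode sarcomere were represented by 4 genes, ttn-1, unc-22, unc-89 and ketn-1. They are 4 of 14943 named genes on the array, and were measured by the 10 probes, of 21632, whose only gene symbol in the platform's annotation is one of these. There were 3 probes for ttn-1 (gene ID 266969), 1 for unc-22 (178135), 1 for unc-89 (171990) and 5 for ketn-1 (178740). The 4 genes were chosen with earlier results of these same arrays in view, so their ratios are given as a description and carry no test. All 10 probes had a value on all 4 arrays.

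RNA of wild-type Caenorhabditis elegans larvae of the second stage (L2) was prepared 4 times (preps 1 to 4), and each prep was hybridised on its own 2-colour array together with a mixed reference RNA, also of wild-type worms. The sources used here do not give what was mixed in the reference, how the worms were grown, or whether the preps came from separate cultures. Each value is a log2 ratio of L2 over the reference, centred on the median of its array, so that 1 stands for a 2-fold higher signal in L2. No dyes are named. Since the labels list the reference under channel 1 and the larvae under channel 2, a positive value is read as likely higher in L2. A list of 8 adult and germ line genes, among them the yolk protein genes vit-2, vit-5 and vit-6, was negative in all 4 preps on this reading, with medians between -5.74 and -3.84.

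Giant proteins of this family are chains of immunoglobulin and fibronectin type III domains, and most carry protein kinase domains as well. In the obliquely striated body wall muscle of the worm they link, space and stiffen the filaments of the sarcomere. TTN-1 is a titin-like protein of the I-band with a kinase domain and long elastic stretches. Twitchin, the product of unc-22, lies in the A-band beside the thick filaments, and its loss makes the muscle twitch. The obscurin homologue UNC-89 sits at the M-line in the middle of the A-band and organises thick filaments. Kettin, the product of ketn-1, has no kinase domain, binds actin and lies in the I-band near the dense bodies that anchor thin filaments.

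Prep 3 stood apart from the other preps. Across 20570 probes with a value on all 4 arrays, it correlated with the others at r = 0.485, 0.567 and 0.495, against 0.737, 0.714 and 0.679 among preps 1, 2 and 4 (a description across probes, which are not replicates). It also had the lowest array weight of the 4 in limma, 0.454, against 0.940 to 1.59. The defining body wall muscle genes myo-3, unc-54 and unc-15, which encode the myosin heavy chains A and B and paramyosin, were at 0.47, -0.69 and -0.79 in prep 3, where the other preps gave 1.59 to 2.77. Intestine markers had a median of 0.77 in prep 3 and 1.16 to 1.51 in the others. Hypodermis markers had a median of -0.18 in prep 3 and 0.75 to 1.70 in the others, and neuronal markers -0.36 in prep 3 and -0.23 to -0.14 in the others. Prep 3 was lowest for 3 of 4 intestine, 3 of 3 hypodermis and 1 of 4 neuronal markers, and the intestine gene elt-2 was highest there, at 0.94. The adult and germ line list went the other way, with a median of -3.84 in prep 3 and -5.74 to -4.41 in the others. The means of the 4 giant genes and the list medians are therefore given below with and without prep 3, and its part in the results was not tested. In whole larvae, a larger share of muscle cells and more RNA per muscle cell cannot be told apart.

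The ratio of ttn-1 was high in every prep. The mean of its 3 probes was 2.58, 2.72, 2.76 and 2.07 in preps 1 to 4. This corresponds to a mean of 2.53 ± 0.32 (SD, n = 4), or 5.79-fold more signal in L2 than in the reference. By mean ratio the gene ranked 35th of 14511 named genes on all 4 arrays. Within each array it lay at or above the 99.1st percentile of named genes. Without prep 3 the mean was 2.46.

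The 3 probes of ttn-1 nevertheless differed from each other in one prep. Probe 1 (2779605) was at 3.00, 2.83, 3.97 and 1.99 in preps 1 to 4, a mean of 2.95 ± 0.81 (SD, n = 4). Probe 3 (2798059) was at 2.61, 3.00, 3.62 and 1.84, a mean of 2.77 ± 0.75. Both were highest in prep 3 and lowest in prep 4, and their difference stayed between -0.17 and 0.39 in all preps. Probe 2 (2782307) was at 2.15, 2.32, 0.68 and 2.38, a mean of 1.88 ± 0.81, and prep 3 was its lowest value.

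In prep 3 the signal of L2 over the reference was thus 15.7-fold by probe 1 and 12.3-fold by probe 3, but 1.61-fold by probe 2. The gap between the highest and lowest ttn-1 probe was 3.29 in prep 3, and 0.85, 0.68 and 0.54 in preps 1, 2 and 4. Of 43 genes with 3 probes on all arrays, 2 had a larger gap in prep 3, where the median gap was 0.61. The even mean of ttn-1 over preps therefore joined probes that went apart in prep 3. The platform's annotation ties all 3 probes to the same 3 transcript accessions and probe 3 to 1 more, so it does not separate probe 2 from probe 1 by transcript. The probes lie in different runs of neighbouring probes, whose prep 3 medians were 0.34, -0.36 and -0.38 for probes 1, 2 and 3. With these run medians taken off, the prep 3 values were 3.63, 1.05 and 4.00.

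**Figure D1:**
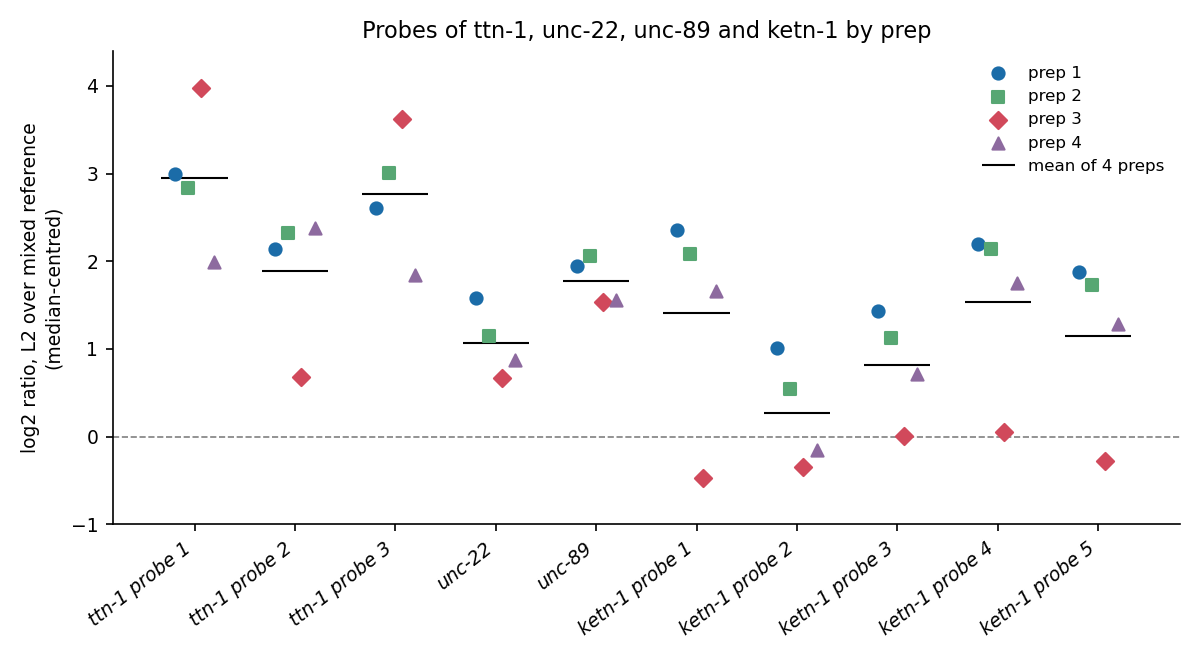
Median-centred log2 ratio of L2 over the mixed reference (vertical axis) for each of the 10 probes (horizontal axis), with 1 symbol per prep and a bar at the mean of 4 preps. In prep 3 (diamonds), ttn-1 probes 1 and 3 stand at 3.97 and 3.62 and ttn-1 probe 2 at 0.68, and all 5 ketn-1 probes lie between -0.47 and 0.06.

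Among the A-band members, unc-89 had the steadier ratio. Its single probe (2774143) was at 1.94, 2.06, 1.54 and 1.56 in preps 1 to 4. The platform's annotation names the gene of this probe but no transcript. The mean was 1.77 ± 0.27 (SD, n = 4), or 3.42-fold, rank 142 of 14511 genes, and it lay at percentile 97.98 or higher on every array. It had the smallest range of the 10 probes over the preps, 0.52. Preps 1 and 2 were above preps 3 and 4, and without prep 3 the mean was 1.85.

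The twitchin gene unc-22 was lower in its ratio than unc-89 in every prep. Its single probe (2779093) was at 1.58, 1.15, 0.67 and 0.88, a mean of 1.07 ± 0.39 (SD, n = 4), or 2.10-fold, and it ranked 539th. Prep 3 was its lowest value, next to prep 4. Relative to its array, the gene lay at percentile 87.7 in prep 3, where the other preps put it between 93.2 and 96.6. Without prep 3 the mean was 1.20.

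By gene mean, kettin was the member that varied most over preps. By probe this was less clear, with SDs of 0.62 to 1.29 for the ketn-1 probes and 0.75 to 0.81 for those of ttn-1. The ttn-1 probes went opposite ways in prep 3, which evened out their mean. The mean of the 5 ketn-1 probes was 1.78, 1.53, -0.21 and 1.05 in preps 1 to 4, with a mean of 1.04 ± 0.88 (SD, n = 4), or 2.05-fold, and rank 568. It was between percentiles 95.8 and 97.6 of named genes in preps 1, 2 and 4 and at percentile 40.0 in prep 3. Without prep 3 the mean was 1.45, with values of 1.05 to 1.78.

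All 5 ketn-1 probes had their lowest value in prep 3. Probe 1 (2785945) was at 2.36, 2.09, -0.47 and 1.66 in preps 1 to 4, the widest range of the 10 probes, 2.83. Probe 4 (2802085) was at 2.20, 2.14, 0.06 and 1.75, and probe 5 (2804789) at 1.87, 1.73, -0.28 and 1.28. These 3 probes were above 1 in preps 1, 2 and 4 and near 0 in prep 3.

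Probes 3 and 2 had smaller mean ratios than these, with the preps in the same order. Probe 3 (2801391) was at 1.43, 1.12, 0.01 and 0.71, a mean of 0.82 ± 0.62 (SD, n = 4). Probe 2 (2794093) was at 1.02, 0.54, -0.34 and -0.16, a mean of 0.27 ± 0.63, and was below 0 in preps 3 and 4. Probe 2 was lower than each of probes 3, 4 and 5 in all 4 preps, and lower than probe 1 in 3 of 4. The gap between the highest and lowest ketn-1 probe was 1.34, 1.60 and 1.91 in preps 1, 2 and 4 but 0.53 in prep 3. In prep 3 the probes thus lay close together at a ratio near 1 to 1, while ttn-1's probes were far apart. All 5 probes share 4 transcript accessions in the annotation, and probe 3 has 1 more. After centring within runs, their prep 3 values were between -0.72 and 0.14.

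The order of the 4 genes by mean ratio was ttn-1, unc-89, unc-22 and ketn-1. The ratio of ttn-1 exceeded that of unc-89 by 0.64, 0.66, 1.22 and 0.52 in preps 1 to 4 (mean difference 0.76 ± 0.32, SD, n = 4). Likewise unc-89 exceeded unc-22 by 0.37, 0.91, 0.87 and 0.68 (0.71 ± 0.25). The difference of unc-22 minus ketn-1 was -0.20, -0.38, 0.87 and -0.17 (0.03 ± 0.57), so these neighbours did not differ beyond their spread. Only in prep 3 was unc-22 above ketn-1, and without prep 3 the means were 1.20 and 1.45. The order is that of gene means and did not hold for every probe. In prep 3, ttn-1 probe 2 was at 0.68, below unc-89 at 1.54, and its mean of 1.88 was near that of unc-89, 1.77. The ketn-1 probe means ran from 0.27 to 1.54, on both sides of unc-22 at 1.07. Both unc-89 and unc-22 rest on 1 probe each. These are ratios to the reference, and they give no order of transcript level between genes.

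**Figure D2:**
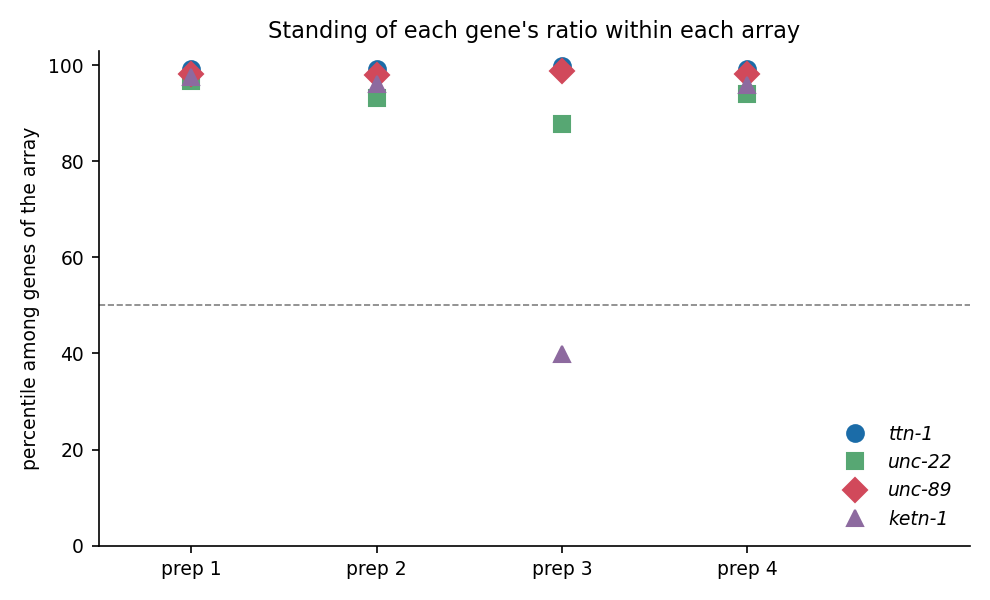
Percentile of each gene's log2 ratio among the named genes of the same array (vertical axis) for the 4 preps (horizontal axis), with 1 symbol per gene and a dashed line at the middle of the array. In preps 1, 2 and 4 all 4 genes lie at percentile 93.2 or higher. In prep 3 ttn-1 is at 99.9, unc-89 at 98.8, unc-22 at 87.7 and ketn-1 at 40.0. The ttn-1 value is that of the mean of 3 probes, of which probe 2 alone was at percentile 87.2 among probes in prep 3.

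Against the whole array, 8 of the 10 probes had a mean of at least 1 on the log2 scale, a level reached by 3.90% of probes on all 4 arrays. A mean of at least 2 was seen for 2 of the 10, against 0.564% of these probes. In all 4 preps, 7 of the 10 were above 0, as were 19.9% of these probes. In the limma fit over 21445 probes (moderated test of the mean ratio against 0, Benjamini-Hochberg adjusted p under 0.05), 6 of the 10 passed as higher in L2, against 4.75% of all probes, and 0 passed as lower, against 9.70%. The 6 were the 3 ttn-1 probes, unc-22, unc-89 and ketn-1 probe 4. Since the genes were chosen on this same comparison, nothing is read from these counts. Without prep 3, ketn-1 probes 1, 3 and 5 passed as well, a count of 9. The count was 4 without prep 1, where unc-22 and ketn-1 probe 4 no longer passed, 3 without prep 2, where ttn-1 probe 2 was lost in addition, and 5 without prep 4, where ketn-1 probe 4 was lost.

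Other genes of the sarcomere, its attachment, excitation and pharyngeal muscle were described from 5 lists that leave out the 4 giant genes. The lists were not limited to genes particular to muscle. Of 14921 named genes tested, 5.33% passed as higher and 11.3% as lower in L2, and the median ratio was 0.01. In the thick filament and M-line list, 3 of 13 tested genes passed as higher and 1 as lower, with a median of 0.54. Highest was myo-3 at 2.04 ± 1.06 (SD, n = 4), followed by unc-54 at 1.44 ± 1.42, which did not pass with all 4 preps. It passed without prep 3, at 2.15, and with array weights, at 1.84. Lowest were mel-26, an adaptor of a ubiquitin ligase that binds UNC-89, at -0.85 ± 0.16, which passed, and the LIM domain gene lim-9, whose product also binds UNC-89, at -0.51 ± 0.50. The call of myo-3 ended without prep 1, 2 or 4 and that of mel-26 without prep 1 or 2.

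The thin filament list had 7 of 21 genes higher and 0 lower, with a median of 0.67. The troponin I gene tni-1 (1.99 ± 0.18) and the pharyngeal troponin T gene tnt-4 (1.71 ± 0.55) were highest. The actin-severing protein gene unc-60 (-0.51 ± 0.76) and the capping protein gene cap-2 (-0.47 ± 0.31) were lowest and did not pass. In the dense body and attachment list 4 of 20 passed as higher and 0 as lower, with a median of 0.56. At its ends stood the laminin gene epi-1 (2.39 ± 0.49) and dim-1, an immunoglobulin domain protein of muscle (1.97 ± 0.42), and the integrin gene pat-3 (0.02 ± 1.10) and the paxillin gene pxl-1 (-0.03 ± 0.48).

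In the excitation and calcium list 3 of 17 passed as higher and 0 as lower, with a median of 0.30. The ryanodine receptor gene unc-68 (1.36 ± 0.55) and the calmodulin gene cmd-1 (0.71 ± 0.12) were highest, and their calls ended without prep 1 or 2, that of cmd-1 also without prep 4. The acetylcholine receptor gene unc-38 (0.00 ± 0.30) and the calcium pump gene sca-1 (-0.07 ± 1.82) were lowest, and sca-1 passed as higher without prep 3, at 0.84. The pharyngeal muscle list had 3 of 8 higher and 0 lower, with a median of 0.76, from myo-2 (2.23 ± 0.57) and tnt-4 down to the troponin genes tnc-2 (0.17 ± 0.61) and tni-4 (0.09 ± 0.55). Of the 76 different list genes on all 4 arrays, 0 had a higher mean than ttn-1, 5 than unc-89, 16 than unc-22 and 17 than ketn-1. The first of these counts rested on prep 3: without it epi-1 (2.61), myo-3 (2.56) and myo-2 (2.49) had higher means than ttn-1 (2.46), and epi-1 was also higher with array weights and in preps 1 and 2 alone. Without prep 3 the list medians were 0.87, 0.94, 0.88, 0.63 and 0.70 in the order given here, and the mean of pat-3 was 0.56. The number of list genes passing as higher depended on the preps left out, with 0 to 6, 5 to 12, 3 to 14, 0 to 8 and 2 to 4 in the lists as ordered here.

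**Figure D3:**
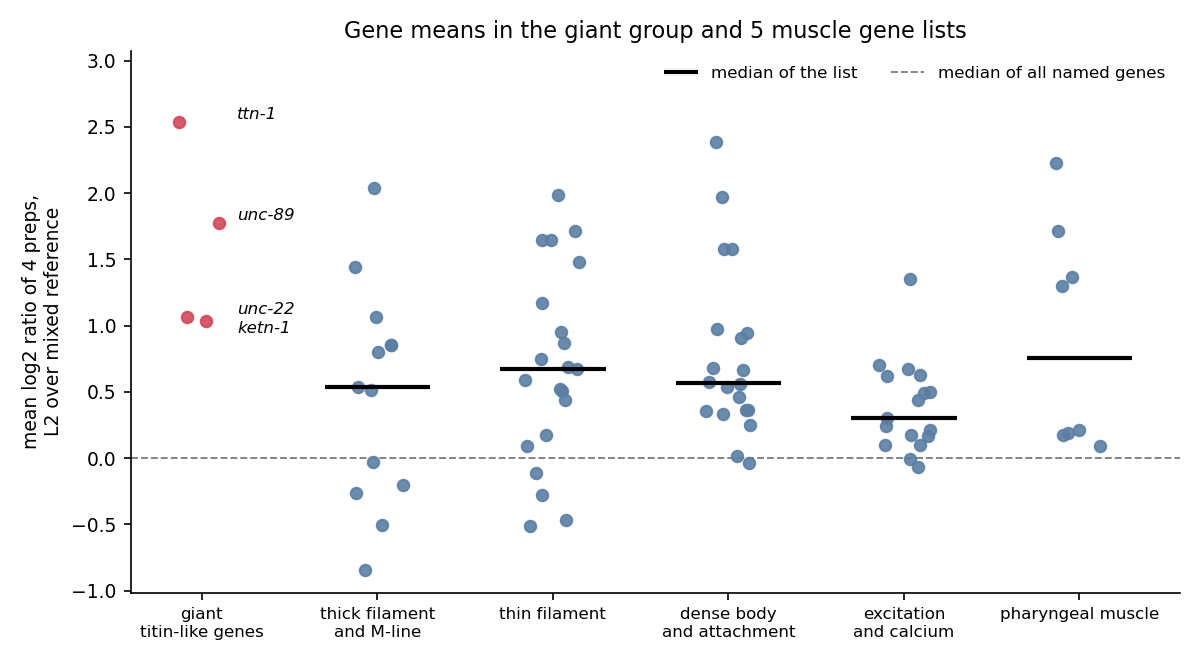
Mean log2 ratio of L2 over the mixed reference over 4 preps (vertical axis) for the 4 giant genes and for the genes of the 5 lists (horizontal axis). Each point is 1 gene, spread sideways for visibility, and bars are list medians (0.54, 0.67, 0.56, 0.30 and 0.76), above the dashed median of all named genes. The point of ttn-1 at 2.53 lies above every list gene with all 4 preps, but without prep 3 epi-1, myo-3 and myo-2 have higher means than ttn-1.

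The departure of prep 3 was not shared evenly by the giant genes. Prep 3 minus the mean of the other preps was 0.30 for ttn-1, -0.31 for unc-89, -0.54 for unc-22 and -1.66 for ketn-1. Among 14511 named genes the 10th and 90th percentiles of this difference were -0.95 and 0.74, and 2.84% of genes had a lower value than ketn-1. By probe, the difference was 1.37, -1.60 and 1.14 for ttn-1 probes 1, 2 and 3. It was between -2.50 and -0.81 for the 5 ketn-1 probes. Of the 10 probes, 8 were lowest in prep 3, and the other 2, ttn-1 probes 1 and 3, were highest there.

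Genes of the 5 lists were also mixed in prep 3. So were the markers of other tissues, with prep 3 lowest for 3 of 3 hypodermis, 3 of 4 intestine and 1 of 4 neuronal markers. Prep 3 was the lowest of the 4 preps for 18 of 20 genes of the dense body and attachment list, 9 of 13 of the thick filament and M-line list, 12 of 21 of the thin filament list, 10 of 17 of the excitation and calcium list and 2 of 8 of the pharyngeal list, against 31.0% of all named genes. The median difference was -1.03 for dense body and attachment genes, -0.75 for thick filament genes, -0.67 for thin filament genes, -0.27 for excitation genes and 0.06 for pharyngeal genes. The difference of ketn-1 was close to that of the alpha-actinin gene atn-1 (-1.66), which is 1 of the 3 genes picked below as nearest to it on these same values. It was below those of the troponin I genes tni-1 (0.31), unc-27 (0.30), tni-3 (1.63) and tni-4 (-0.50). All of these were set beside it after their values were seen. Most of the thin filament list went the other way from tni-1, unc-27 and tni-3. In it 15 of 21 genes had a difference below 0, among them the actin genes act-1 to act-4 (-1.41 to -0.78).

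**Figure D4:**
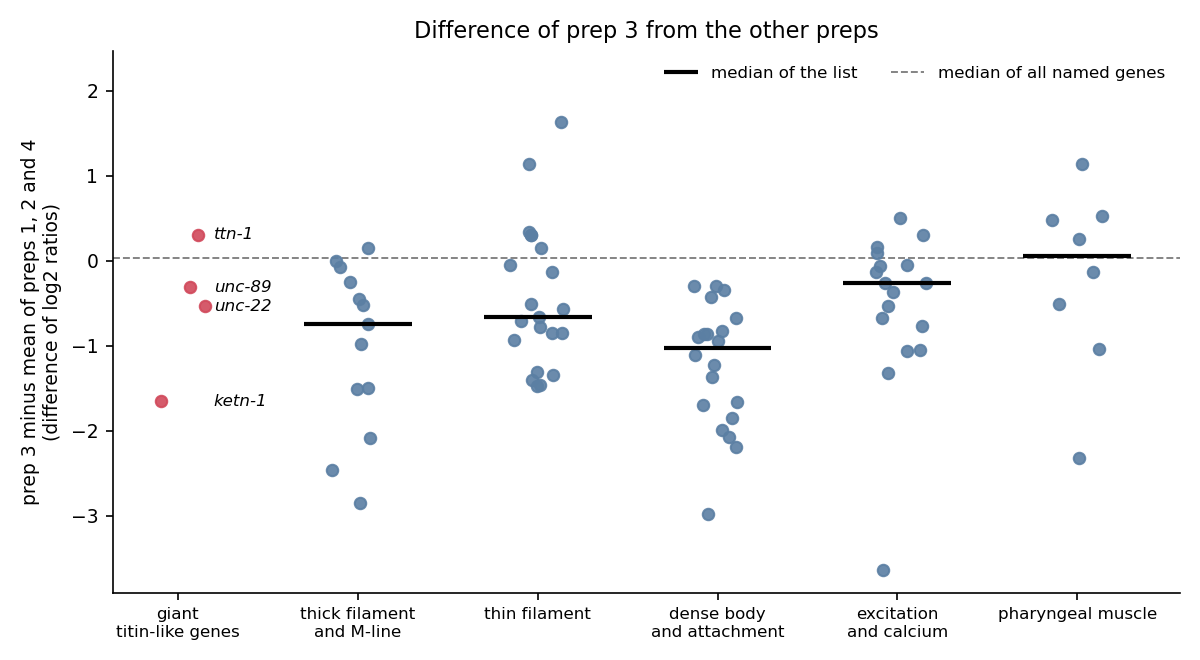
Difference of the log2 ratio in prep 3 from the mean of preps 1, 2 and 4 (vertical axis) for the 4 giant genes and the genes of the 5 lists (horizontal axis). Each point is 1 gene, bars are list medians and the dashed line is the median of all named genes. The giant genes range from 0.30 for ttn-1 to -1.66 for ketn-1, and all 20 dense body and attachment genes lie below 0.

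The sample titles end in what reads as a date, though the labels do not say what it dates. Read so, preps 1 and 2 share a month and preps 3 and 4 share another. The mean ratio in preps 3 and 4, against that in preps 1 and 2, was 2.42 against 2.65 for ttn-1, 1.55 against 2.00 for unc-89, 0.77 against 1.36 for unc-22 and 0.42 against 1.65 for ketn-1. All 4 genes were thus lower in the mean of preps 3 and 4. For ttn-1 the lower mean came with prep 4 (2.07), as prep 3 was its highest value (2.76). Its probe 1 was slightly higher in preps 3 and 4, at 2.98 against 2.91. For ketn-1, prep 4 alone was at 1.05. Each month holds 2 L2 preps, and the part of the month was not tested apart from that of the prep.

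Likeness to other genes was measured as the root mean square difference of the centred ratios over the 4 preps, among 14507 named genes. For ttn-1 the 3 nearest were dod-17 (0.25), dct-18 (0.25) and the collagen gene col-145 (0.32), each with a mean between 2.34 and 2.39. This likeness is to the mean of the 3 ttn-1 probes. In prep 3 the 3 nearest genes were at 2.18 to 2.45, while the ttn-1 probes were at 3.97, 0.68 and 3.62. The 3 nearest to unc-22 were nstp-2 (0.09), jmjc-1 (0.10) and ssb-1 (0.13). Nearest to unc-89 were the apyrase gene apy-1 (0.12), the glutathione S-transferase gene gstk-1 (0.15) and the glucuronosyltransferase gene ugt-46 (0.17). For ketn-1 they were mct-4 (0.12), alh-6 (0.12) and atn-1 (0.15), all of which were between -0.34 and -0.26 in prep 3 and at 1.02 or more in the other preps.

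**Figure D5:**
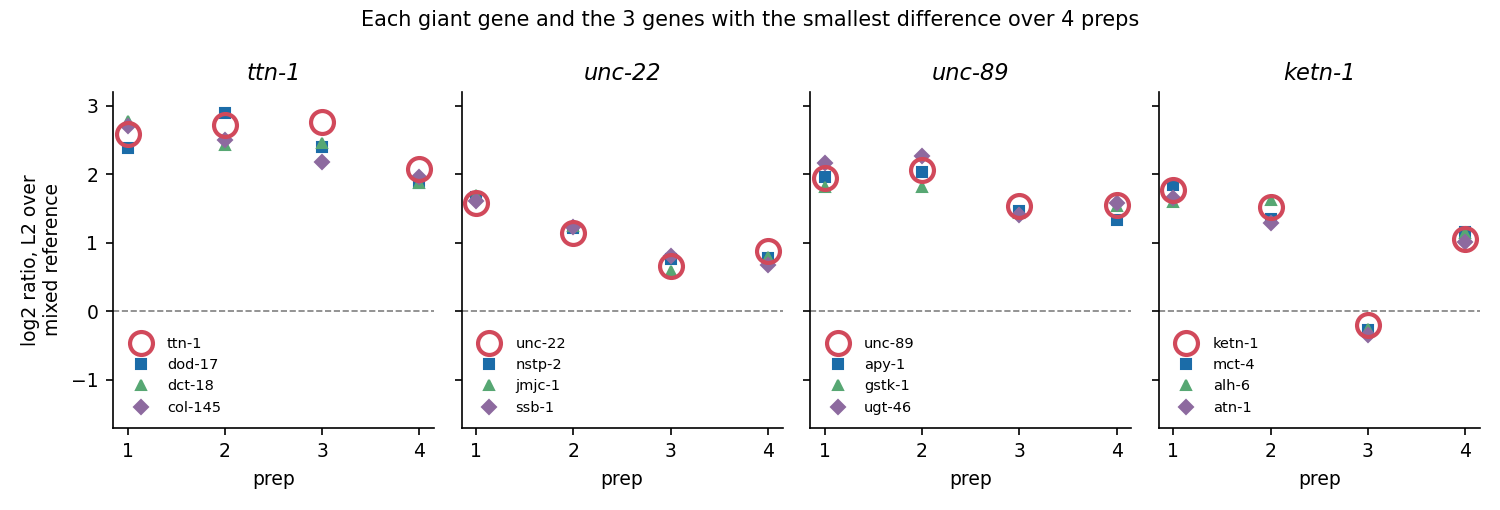
Centred log2 ratio of L2 over the mixed reference (vertical axis) in preps 1 to 4 (horizontal axis) for each giant gene (open circles, 1 panel each) and the 3 genes with the smallest root mean square difference from it. The panel of ketn-1 shows the low values in prep 3, from -0.34 to -0.21, that its 3 nearest genes share. In the panel of ttn-1 the circle in prep 3 is the mean of 3 probes that lay far apart there.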

How the data were processed

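Per the authors' deposited value table, 1 column per array, the values are log2 ratios. The sources used here do not give the background correction, normalization, spot filters or dyes. That the base is 2 follows from the ratios themselves: raising 2 to each value gave a whole number of thousandths, to within 0.05 of one, for 100% of the ratios below 0.9. Deposited medians were between 0.0158 and 0.0580. Precision is limited by the number of arrays. Spot intensities were not used, so ratios from weak spots could not be told from others.

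Each array was centred on its median. A limma 3.58.1 fit in R 4.3.3 (lmFit, eBayes) tested each probe with at least 3 values against 0, two-sided, with adjustment over the whole table. The reference thus counts as 1 control sample, and no spread between separate reference samples is measured. The p-values measure only the spread of the ratios between these arrays, which may be technical. That spread joins the prep, the reference channel and the array. The fit was tested on simulated data. Gene values are the mean of a gene's probes on each array. Of 21632 probes 16450 had 1 gene, 247 several and 4935 none. Coordinates are left out, as the sources used here do not give the genome build of the array.

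The members, the 5 gene lists and the marker lists were chosen with earlier results of these data known. Named are all member probes, the 2 highest and 2 lowest genes of each list on all 4 arrays, and the 3 genes nearest to each member. Alternatives were deposited values, mean centring, scale and quantile normalization, centring within 32 runs of neighbouring probes, array weights, a robust fit, probes on all 4 arrays, leaving out ratios above 6 in size, months, the median over probes, a fit on genes, and each prep left out. Python 3.11.15, pandas 2.3.3 and matplotlib 3.10.9 made tables and figures.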

Additional observations from a re-analysis of the deposited data

Results flagged for a closer look

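Of 43 probes and genes checked for a prep far from the others, 5 had one, and in each it was prep 3. About 1 group of 4 in 20 is picked out this way by chance alone, if groups are independent and not chosen on their values. The items here share the same 4 arrays, and many were named by their means or likeness over these preps. That rate therefore does not apply to them, and nothing is read from the count. For ttn-1 probe 2 the value in prep 3 was 0.68, with the other preps at 2.15 to 2.38. The myosin genes myo-3 and unc-54 were at 0.47 and -0.69 in prep 3, and at 2.38 to 2.77 and 2.04 to 2.22 in the others. The integrin gene pat-3 was at -1.62, with the others at 0.46 to 0.68, and the calcium pump gene sca-1 at -2.80, with the others at 0.80 to 0.87. None of the 5 ketn-1 probes was picked out, although each had its lowest value in prep 3.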

How the results depend on the processing

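Under the alternatives that kept all 4 preps, the means of the 4 giant genes moved by less than 1 SD over preps. Leaving out 1 prep or taking 1 month cannot move a mean of 4 preps by a full SD. Those settings therefore say nothing on this point. With each prep left out in turn the gene means were 2.46 to 2.69 for ttn-1, 1.68 to 1.85 for unc-89, 0.90 to 1.20 for unc-22 and 0.79 to 1.45 for ketn-1. Of all probes, 3100 passed the threshold, and 1211 to 3376 with 1 prep left out: 1211 without prep 1, 1246 without prep 2 and 1779 without prep 4. Among the 10 member probes 6 passed, and 3 to 9 with 1 prep left out, with 3 without prep 2. With array weights, which give prep 3 the least weight, 9 passed. In the fit on genes 3 of the 4 genes passed and ketn-1 did not, while all 4 passed without prep 3 or with array weights, and 2, ttn-1 and unc-89, without prep 1 or without prep 2. The median of the excitation and calcium list, 0.30, was 0.23 to 0.63 with 1 prep left out, the highest without prep 3, and 0.59 in preps 1 and 2 alone. The cause of these changes was not tested. No result changed sign among those past the threshold. Over 63 results and 17 settings, 817 of 867 values were labelled unchanged. For the means of the giant genes and their probes and for list medians, this meant staying within the spread over preps. For the other named genes it meant keeping their side of the threshold. For counts it meant staying within a set fold of the main count, so that 9 member probes against 6 still fell under this label. The tally is therefore a loose guide to stability. Each ratio already pairs an L2 prep with the reference on its own array. The 4 preps form 1 group, so there was no further pairing to use.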
